A study of Homo sapiens with 4 samples.

Results

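Antigen presentation on major histocompatibility complex (MHC) class I was examined through 9 genes, taken by gene name from the 60544 rows of the deposited gene count table. They are the heavy chains HLA-B, HLA-C, HLA-E and HLA-F, the light chain B2M, the peptide transporter genes TAP1 and TAP2, the loading factor TAPBP and the transcriptional activator NLRC5. All 9 were in the table once and all 9 passed the filter on low counts, which kept 16802 genes.

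Poly(A) RNA was sequenced from PC3, an established human prostate cancer cell line, in 4 libraries. Of these, 2 came from cells labelled shNC, the control hairpin, and 2 from cells labelled sh812, taken as the METTL3 knockdown since the series compares METTL3-depleted with control cells. METTL3 is the enzyme that, with METTL14, methylates adenosines of messenger RNA (N6-methyladenosine, m6A). Both arms are the same line in the same medium and differ, as far as the labels go, only in the hairpin. A single knockdown hairpin was used, so an effect of that hairpin on other genes and an effect of METTL3 loss cannot be told apart. The labels do not say whether the cells were a pool or a clone, nor whether replicates were separate cultures, so the p-values measure the spread between these libraries, which may be technical.

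Class I molecules show peptides from inside the cell to CD8 T cells. Peptides cut by the proteasome are pumped into the endoplasmic reticulum by the TAP1-TAP2 transporter, trimmed, and loaded onto a heavy chain paired with B2M while TAPBP (tapasin) holds the empty molecule at the transporter. HLA-B and HLA-C are classical, highly polymorphic heavy chains, HLA-E and HLA-F are non-classical ones that are also read by natural killer cell receptors, and NLRC5 switches on many genes of this set by acting on a shared promoter module. Loss of class I from the cell surface is a known route by which tumours escape T cells.

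Total counts ranged from 31450648 to 37041330 per library, and abundance is given as CPM, the count scaled to a common library size after TMM adjustment. The targeted transcript checks the labels: METTL3 had 44.3 and 43.6 CPM in the shNC libraries and 7.66 and 8.75 CPM in the sh812 libraries, which is -2.42 on the log2 scale (SE 0.11; edgeR, adjusted p = 5.54e-14). The epithelial markers KRT8, KRT18, KRT19 and EPCAM summed to 805 and 910 CPM in shNC and to 942 and 999 CPM in sh812. Of these, edgeR called EPCAM (36.5% higher, adjusted p = 0.00013) and KRT18 (23.3% higher, adjusted p = 0.0079) higher in sh812. Of 5 leukocyte markers, CD3E was at 0 in all libraries and the sum was 0.759 to 1.21 CPM. The 11 class II presentation genes, which mark professional antigen-presenting cells, summed to 2.36 to 4.43 CPM, with HLA-DQA1 at 0 throughout. The 3 endothelial markers summed to 23.8 CPM in each shNC library and to 32.9 and 38.8 CPM in sh812, nearly all of it PECAM1, which was called higher, while VWF and CDH5 had at most 6 counts in any library. The fibroblast list summed to 46.7 to 53.0 CPM across the 4 libraries, with 2 of its genes above 0 in log2 fold change and 2 below. COL1A2 was called higher. COL1A1 averaged 38.5 CPM in shNC and 31.9 CPM in sh812 and was not called (log2 fold change -0.27, adjusted p = 0.059 in edgeR). The part of these markers in the results below was not tested.

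The promoters of HLA-B, HLA-C and B2M are shown because the first pair of genes fell together in sh812 while the partner of their products, B2M, did not pass the test. The sequences run from 250 to 41 bases before the RefSeq start, 5′ to 3′ on the gene's strand, in GRCh38.p14. They are chr6:31357220-31357429 on the minus strand for HLA-B, chr6:31272133-31272342 on the minus strand for HLA-C and chr15:44711267-44711476 on the plus strand for B2M. Capitals mark matches, on either strand, to the CCAAT box (CCAAT), the CRE half-site (TGACG), an interferon-response core (GAAA, any 2 bases, GAAA; or, relaxed, GAA, any 2 bases, GAAA) and the NF-kB motif. They are reference sequences and not read from PC3.
HLA-B: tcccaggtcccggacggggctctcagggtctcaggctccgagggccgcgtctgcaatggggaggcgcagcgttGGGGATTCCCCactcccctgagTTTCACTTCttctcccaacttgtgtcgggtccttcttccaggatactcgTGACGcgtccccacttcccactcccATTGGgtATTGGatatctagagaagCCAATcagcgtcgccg
HLA-C: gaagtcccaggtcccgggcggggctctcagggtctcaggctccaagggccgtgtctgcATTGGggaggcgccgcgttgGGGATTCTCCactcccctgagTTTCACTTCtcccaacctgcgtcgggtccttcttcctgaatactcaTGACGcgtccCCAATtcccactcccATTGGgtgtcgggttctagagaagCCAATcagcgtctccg
B2M: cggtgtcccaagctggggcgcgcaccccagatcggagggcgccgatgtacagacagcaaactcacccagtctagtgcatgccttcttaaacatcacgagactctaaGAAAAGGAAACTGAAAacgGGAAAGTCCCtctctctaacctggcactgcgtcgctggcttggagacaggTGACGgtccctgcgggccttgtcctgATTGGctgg

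The HLA-B and HLA-C windows were 88.8% identical over an alignment of 214 positions, against 46.0% between HLA-B and B2M. The window of HLA-F, which was not called, was 78.8% identical to that of HLA-B and 77.8% to that of HLA-C. Whether promoter likeness goes with the change was not tested. In all 3 printed windows a CRE half-site lay upstream of a CCAAT box on the opposite strand. Their NF-kB and interferon-response matches lay further from the start than the CRE half-site. In HLA-B the NF-kB match came first and the interferon-response match second, and in B2M that order was the other way round. HLA-B had 3 CCAAT boxes, HLA-C 4 and B2M 1. HLA-B and HLA-C matched only the relaxed interferon-response core, and B2M held the stricter one at overlapping positions. Of 35116 RefSeq promoter windows of the same length, 28.8% held a CCAAT box, 17.4% a CRE half-site, 2.5% the strict and 5.5% the relaxed interferon-response core, and 4.5% the NF-kB motif. A match describes the letters and is not evidence that a factor binds there. RefSeq promoter windows were matched for 7 of the 9 genes, and HLA-E and NLRC5 are named without a sequence.

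The comparison of sh812 with shNC asked whether METTL3 knockdown changed the transcripts of class I presentation. The classical heavy chains HLA-B and HLA-C were lower in both sh812 libraries than in either shNC library, and in the fit they fell by 17.8% and 14.4%. The other 7 genes, which include the light chain, both transporter subunits and tapasin, did not pass the test. Of the 9 genes, edgeR's quasi-likelihood test thus called 2 lower and 0 higher (adjusted p under 0.05), against 10.8% of all tested genes in either direction and 5.42% lower. At an unadjusted p under 0.05 those 2 genes alone passed, against 24.8% of all tested genes. The groups did not overlap for 3 genes that were lower in sh812 (HLA-B, HLA-C and B2M) and 2 that were higher (HLA-F and TAP2), which over all tested genes happened in 27.4% and 26.2%, or 53.6% together. The median log2 fold change of the 9 was -0.041, and that of all tested genes was -0.0056. In bulk RNA, fewer cells expressing a gene and less RNA per cell cannot be told apart.

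**Figure D1:**
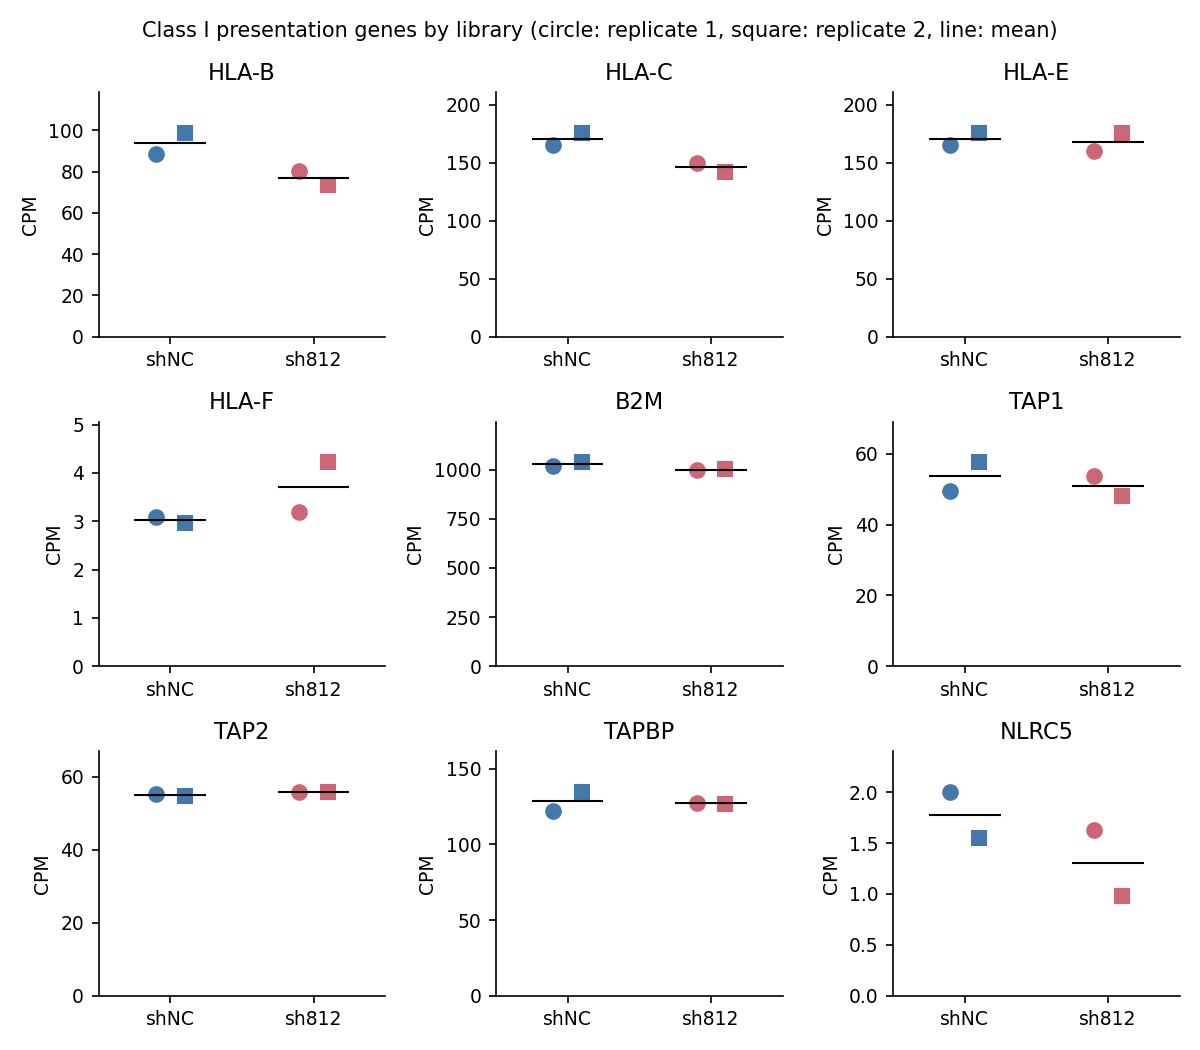
Abundance of the 9 genes in CPM (y axes from 0) in each of the 4 libraries, with circles for replicate 1, squares for replicate 2 and lines for group means. HLA-B and HLA-C sit lower in both sh812 libraries, while HLA-E, TAP1, TAPBP and NLRC5 overlap between groups.

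Among the heavy chains, HLA-B (ENSG00000234745) had 3362 and 3124 counts in shNC replicates 1 and 2, and 2816 and 2638 counts in sh812 replicates 1 and 2. That is 88.6 and 98.8 CPM in shNC and 80.2 and 73.7 CPM in sh812, so the groups did not overlap, and the gap between the nearest libraries was smaller than the gap between the shNC replicates. HLA-B averaged 93.7 ± 7.17 CPM in the controls against 77.0 ± 4.60 CPM after knockdown (SD, n = 2). Its log2 fold change was -0.28 (SE 0.07; edgeR, adjusted p = 0.012), with a 95% interval from -0.43 to -0.13. GENCODE 29 places its gene model on chromosome 6 (minus strand), between 31269491 and 31357188. That span overlaps HLA-C on the same strand, with 35 shared exonic bases, or 1.1% of those of HLA-B and 1.4% of those of HLA-C. Without sh812 replicate 2 the value of HLA-B was -0.22 and its call was lost. Without sh812 replicate 1 the value was -0.34.

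HLA-C (ENSG00000204525), on the same strand from 31268749 to 31272130, had 6256 and 5556 counts in shNC and 5251 and 5084 counts in sh812. Its abundance was 165 and 176 CPM in shNC against 150 and 142 CPM in sh812, again without overlap. HLA-C means were 170.3 ± 7.60 and 145.8 ± 5.32 CPM (SD, n = 2). The fitted log2 fold change was -0.22 (SE 0.06; edgeR, adjusted p = 0.020), with a 95% interval from -0.35 to -0.10. The call was lost without either sh812 library, at -0.26 (adjusted p = 0.132 in edgeR) without replicate 1 and -0.19 (adjusted p = 0.318) without replicate 2. Over all genes, leaving out sh812 replicate 1 or 2 gave 587 or 682 called genes in place of 1822, and leaving out shNC replicate 1 or 2 gave 1845 or 3252. Both genes kept their call under every other normalization, filter and tool tried, and their values with the length trend of each library removed were larger, at -0.36 for HLA-B and -0.28 for HLA-C.

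HLA-E, the non-classical chain that presents signal peptides of other class I chains to natural killer cell receptors, matched HLA-C in CPM in the controls. Per kilobase of main transcript it was below HLA-C. It had 165 and 176 CPM in shNC and 160 and 176 CPM in sh812, so each group spanned nearly the same range. Its log2 fold change was -0.020 (SE 0.06; edgeR, adjusted p = 0.89), with a 95% confidence interval from -0.15 to 0.11, or a change between -9.94% and 7.96%.

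HLA-F, a non-classical chain held largely inside the cell, was rare, with 117 and 94 counts in shNC and 112 and 151 in sh812. In CPM this was 3.08 and 2.97 against 3.19 and 4.22, so the sh812 libraries were higher, the first of them only just. The log2 fold change of 0.29 (SE 0.23; edgeR, adjusted p = 0.48) had a 95% interval from -0.18 to 0.76, and the value was 0.073 without sh812 replicate 2. The antisense gene HLA-F-AS1, with 65 and 47 counts in shNC and 68 and 40 in sh812, shares 12.3% of the exonic bases of HLA-F, and how strand was treated in counting is not given in the sources used here. HLA-G, another non-classical chain, had between 1 and 3 counts in each library and was not tested.

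**Figure D2:**
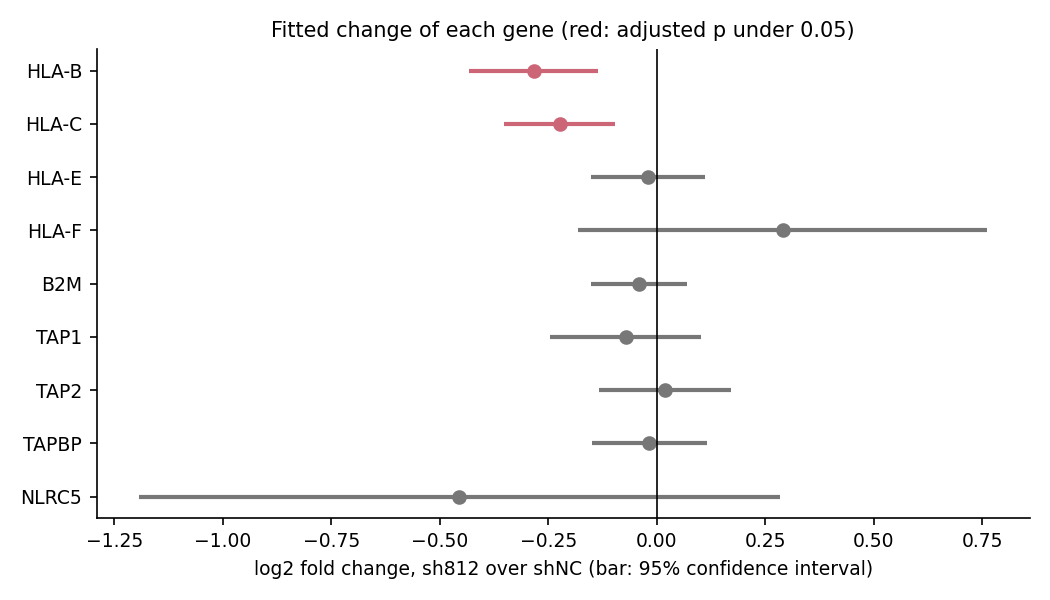
Fitted log2 fold change of each gene, sh812 over shNC (x axis), as a point with its 95% confidence interval as a bar. The intervals of HLA-B and HLA-C lie below 0, and those of the other 7 genes include it, widest for the 2 rarest, HLA-F and NLRC5.

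The make-up of the heavy chain transcripts differed in the same direction. It is computed from the same counts as the changes above, so it is not separate support for them. Of the summed counts of the 4 heavy chain genes, HLA-B took 21.0% and 21.8% in shNC and 20.4% and 18.6% in sh812. HLA-C took 39.1% and 38.8% in shNC and 38.0% and 35.9% in sh812. HLA-E took 39.2% and 38.8% in shNC and 40.8% and 44.4% in sh812, the largest share in all 4 libraries, though by less than 1 percentage point over HLA-C in shNC. Per kilobase of main transcript HLA-C had the largest share in every library, between 43.96% and 46.66%. HLA-F took 0.731% and 0.656% in shNC and 0.811% and 1.07% in sh812. The ratio of HLA-B plus HLA-C counts to HLA-E counts was 1.53 and 1.56 in shNC, and 1.43 and 1.23 in sh812, so the groups did not overlap and sh812 replicate 2 was the lowest. With 2 libraries against 2, the smallest p an exact two-sided permutation test allows is 0.333, so such shares and ratios are a description. The 4 chains together had 422 and 453 CPM in shNC and 393 and 396 CPM in sh812.

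**Figure D3:**
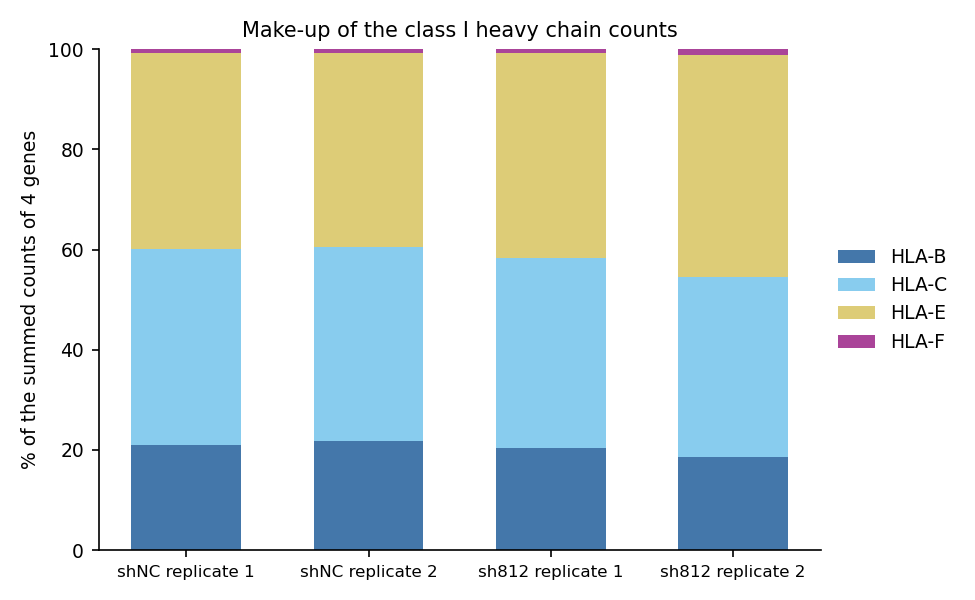
Share of HLA-B, HLA-C, HLA-E and HLA-F in their summed counts (y axis, percent) for each library. The HLA-E band widens from 39.2% and 38.8% in shNC to 40.8% and 44.4% in sh812, and HLA-F stays a thin band at the top.

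B2M, the light chain shared by all class I molecules, was by far the most abundant of the 9 genes. It lies on chromosome 15 from 44711487 to 44718877, outside the MHC. It had 1019 and 1038 CPM in shNC and 998.7 and 1001 CPM in sh812, and although the groups did not overlap, the means of 1028 ± 12.9 and 999.99 ± 1.85 CPM (SD, n = 2) differed little. The log2 fold change of B2M was -0.040 (SE 0.05; edgeR, adjusted p = 0.71), and its 95% interval, from -0.15 to 0.071, reaches down to a change of -9.998%. The ratio of B2M counts to the 4 heavy chains was 2.42 and 2.29 in shNC and 2.54 and 2.53 in sh812, so B2M was higher relative to heavy chains in both sh812 libraries.

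The peptide loading machinery showed no called change. TAP1, which is transcribed away from the immunoproteasome gene PSMB9, had 49.6 and 57.6 CPM in shNC and 53.8 and 48.1 CPM in sh812. The TAP1 replicates of each group thus differed by more than the group means, and its log2 fold change was -0.071 (SE 0.08; edgeR, adjusted p = 0.67). TAP2, the partner subunit of the transporter, had 55.4 and 54.9 CPM in shNC and 55.9 and 55.8 CPM in sh812. The TAP2 replicates differed little, and its log2 fold change was 0.018 (SE 0.07; edgeR, adjusted p = 0.92). The TAP1 to TAP2 count ratio was 0.895 and 1.05 in shNC and 0.963 and 0.863 in sh812, which overlapped.

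TAPBP encodes tapasin, the bridge between the transporter and empty class I molecules. It had 122 and 135 CPM in shNC and 127 in each sh812 library, so the sh812 values lay between the shNC replicates, and its log2 fold change was -0.017 (SE 0.06; edgeR, adjusted p = 0.91). The 95% intervals were -0.24 to 0.10 for TAP1, -0.13 to 0.17 for TAP2 and -0.15 to 0.12 for TAPBP. Falls of the size fitted for HLA-B lie outside all 3, and a fall of the size fitted for HLA-C lies inside that of TAP1.

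NLRC5, the class I transactivator on chromosome 16 from 56989485 to 57083531, was barely expressed. It had 76 and 49 counts in shNC and 57 and 35 in sh812, or 2.00 and 1.55 CPM against 1.62 and 0.978 CPM, with overlapping groups. The log2 fold change was -0.45 (SE 0.36; edgeR, adjusted p = 0.48), and the 95% interval from -1.19 to 0.28 spans a change of -56.3% to one of 21.7%. At this depth a change of the size seen in HLA-B was not detectable in NLRC5, and leaving out 1 library moved its value between -0.86 and -0.14.

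Per kilobase of main transcript, the order of the shNC levels ran from B2M at 603.2 ± 7.57 RPKM (CPM divided by kilobases of transcript; SD, n = 2), through HLA-C at 111 ± 4.95, to NLRC5 at 0.260 ± 0.0471. TAPBP at 68.1 ± 4.64, HLA-E at 65.6 ± 2.83 and HLA-B at 60.6 ± 4.64 RPKM were neighbours. TAPBP and HLA-E differed by less than the SD of either. TAPBP was above HLA-B in both libraries, at 64.85 against 57.3 and 71.41 against 63.85 RPKM. TAP2 at 22.1 ± 0.157 and TAP1 at 18.1 ± 1.91 RPKM came next, and HLA-F was at 1.85 ± 0.0486 RPKM. In sh812, HLA-B was at 49.8 ± 2.97 RPKM, below TAPBP at 67.3 ± 0.146 and HLA-E at 64.6 ± 4.26 RPKM. The middle of this order depends on the length used. With all annotated exonic bases in place of the main transcript, HLA-E at 57.3 RPKM stood above HLA-B at 30.7 and TAPBP at 25.4 RPKM in shNC, and TAP1 at 11.2 above TAP2 at 8.63 RPKM.

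Similar sequence limits what these counts can separate. The main transcripts of HLA-B and HLA-C were 91.5% identical over 1551 aligned positions in GENCODE 29. At the 150 bases of 1 sequenced read, however, 0 of 1387 windows of the HLA-C transcript and 0 of 2452 of HLA-E were found whole in another gene. For HLA-F it was 22.75% of 1486, in AL645939.1, HLA-F-AS1 and RPL23AP1. For HLA-B it was 8.8% of 1398 windows, all in AL671883.2, a pseudogene on the opposite strand with 0 counts in every library. At 50 bases the shares were 21.0% for HLA-B, 6.79% for HLA-C, 5.76% for HLA-E and 41.7% for HLA-F. TAP1 shared 11.1% of its 2810 windows of 150 bases with PSMB8-AS1. At 50 bases it shared 15.2%, with PSMB8-AS1, TAP2 and AL669918.1. B2M, TAPBP and NLRC5 had none at either length. For TAP2, 79.4% of the windows of 150 bases also lie in AL669918.1, an overlapping gene on the same strand that the table lists at 0, and how reads in such overlaps were assigned is not given in the sources used here. Class I genes are polymorphic, so PC3 reads may match the reference less well than these windows do; this affects the level of a gene in both groups, and its part in the difference between them was not tested.

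METTL3 methylates adenosines within a short consensus, of which GGACT is a well-known form. HLA-B held 2 such sites in its main transcript, or 1.29 per kilobase, and HLA-C held 1, or 0.651 per kilobase. HLA-E held 5, or 1.92 per kilobase, B2M 1, or 0.587 per kilobase, and NLRC5 11, or 1.61 per kilobase. The densities were 0.612 for HLA-F, 1.35 for TAP1, 0.801 for TAP2 and 1.06 for TAPBP. The median over 13252 tested genes with a main transcript was 0.932 per kilobase, with quartiles at 0.563 and 1.40. All of the 9 but HLA-E and NLRC5, which were above, lay between these quartiles, the called and the uncalled genes alike. Sites were counted on the transcript's strand only, and methylation itself was not measured.

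Upstream of the transporter, called genes of peptide supply were higher in sh812. Of 12 tested genes for the immunoproteasome and cytosolic peptide supply, 4 were called higher and 0 lower in edgeR, with a median log2 fold change of 0.17, against -0.0056 over all tested genes, of which 5.43% were called higher. NPEPPS, a cytosolic aminopeptidase, rose from 217 and 213 CPM in shNC to 288 and 277 CPM in sh812 (log2 fold change 0.39, SE 0.06, adjusted p = 7.96e-05 in edgeR), and its call held with each library left out. PSMB8, a catalytic subunit of the immunoproteasome encoded beside TAP1 in the MHC, rose from 40.997 and 47.9 CPM to 54.6 and 53.0 CPM (log2 fold change 0.28, SE 0.08, adjusted p = 0.032 in edgeR). Its call was lost without shNC replicate 1, without either sh812 library, with DESeq2 (adjusted p = 0.068) and with library size alone (adjusted p = 0.074). The other immunoproteasome subunits, PSMB9 and PSMB10, were not called, at 0.050 and 0.18 on the log2 scale (edgeR, adjusted p = 0.91 and 0.79). Of the 12 genes, 10 were above 0 in log2 fold change and 2 below. The 2 were PSME3 at -0.14 and TPP2 at -0.12, neither of them called (edgeR, adjusted p = 0.14 and 0.39).

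PSME1 and PSME2 encode the alpha and beta subunits of the PA28 proteasome activator. PSME1 rose from 159 and 155 CPM to 187 and 180 CPM, and PSME2 from 113 and 125 CPM to 144 and 135 CPM, each by 0.23 on the log2 scale (edgeR, adjusted p = 0.014 and 0.028). With the length trend of each library removed, PSME1 was at 0.13 and lost its call (adjusted p = 0.165), and with library size alone PSME2 lost its own at 0.18 (adjusted p = 0.073). PSME1 and PSME2 also lost their calls without either sh812 library, and PSME2 without shNC replicate 1. Transcript length goes with the change between groups in these libraries, with a Spearman correlation across 12254 genes of -0.33, and genes are not independent replicates.

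The partners of peptide loading and trimming in the endoplasmic reticulum were called in both directions, with 1 of 12 higher and 1 lower. Over all tested genes, 5.43% were called higher and 5.42% lower. The median log2 fold change of the 12 partners was -0.080. BCAP31, a sorting factor that carries class I molecules and other membrane proteins out of the endoplasmic reticulum, rose from 937 and 1070 CPM to 1178 and 1176 CPM (log2 fold change 0.23, SE 0.06, adjusted p = 0.015 in edgeR). CANX (calnexin), the lectin that holds newly made heavy chains, fell from 1124 and 1139 CPM to 1021 and 992 CPM (log2 fold change -0.17, SE 0.05, adjusted p = 0.044 in edgeR). The CANX call lay near the threshold and was lost with RLE size factors (adjusted p = 0.060), and once the trend with length (0.105) or with length and GC content (0.091) was removed. The calls of BCAP31 and CANX were also lost without either sh812 library.

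In the other lists edgeR called 0 genes, as did DESeq2 and limma-voom. At an unadjusted p under 0.05 there was 1 of 14 class I promoter factors, 2 of 12 interferon receptor and signalling genes, 5 of 11 tested class I-like and NKG2D ligand genes, and 1 of 4 surface turnover genes, against 24.8% of all tested genes. The medians were 0.039, -0.11, -0.29 and -0.086 in that order. Of the promoter factors, RFXAP, a subunit of the RFX complex that NLRC5 works with, had 9.20 and 10.4 CPM in shNC and 11.7 and 13.2 CPM in sh812 (log2 fold change 0.35, adjusted p = 0.095 in edgeR). NFYA, a subunit of the CCAAT-binding factor NF-Y, had 71.1 and 66.9 CPM in shNC and 63.8 and 61.7 CPM in sh812, without overlap (log2 fold change -0.14, adjusted p = 0.24 in edgeR). JAK1, the kinase common to the interferon receptors, had 165 and 164 CPM in shNC and 147 and 146 CPM in sh812 (log2 fold change -0.16, adjusted p = 0.081 in edgeR). PTPN2, a phosphatase that restrains this pathway, had 84.3 and 83.0 CPM against 97.2 and 93.0 CPM (log2 fold change 0.18, adjusted p = 0.074 in edgeR).

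MICA, a stress ligand of the NKG2D receptor encoded near HLA-B, had 24.0 and 32.2 CPM in shNC and 23.9 and 21.3 CPM in sh812. The MICA groups all but touch at shNC replicate 1 and sh812 replicate 1 (log2 fold change -0.31, adjusted p = 0.089 in edgeR). AZGP1, a class I-like secreted protein, had 22 and 14 counts in shNC and 4 and 6 in sh812 (log2 fold change -1.84, SE 0.74, adjusted p = 0.11 in edgeR). Among the surface turnover genes, SUSD6 was at -0.23 and NBR1 at -0.13 on the log2 scale (edgeR, adjusted p = 0.086 and 0.22). SUSD6 takes part in a complex that removes class I from the cell surface, and NBR1 is an autophagy receptor that has been linked to class I breakdown. Of 11 class II genes only HLA-DMA and CIITA passed the count filter, and neither was called.

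**Figure D4:**
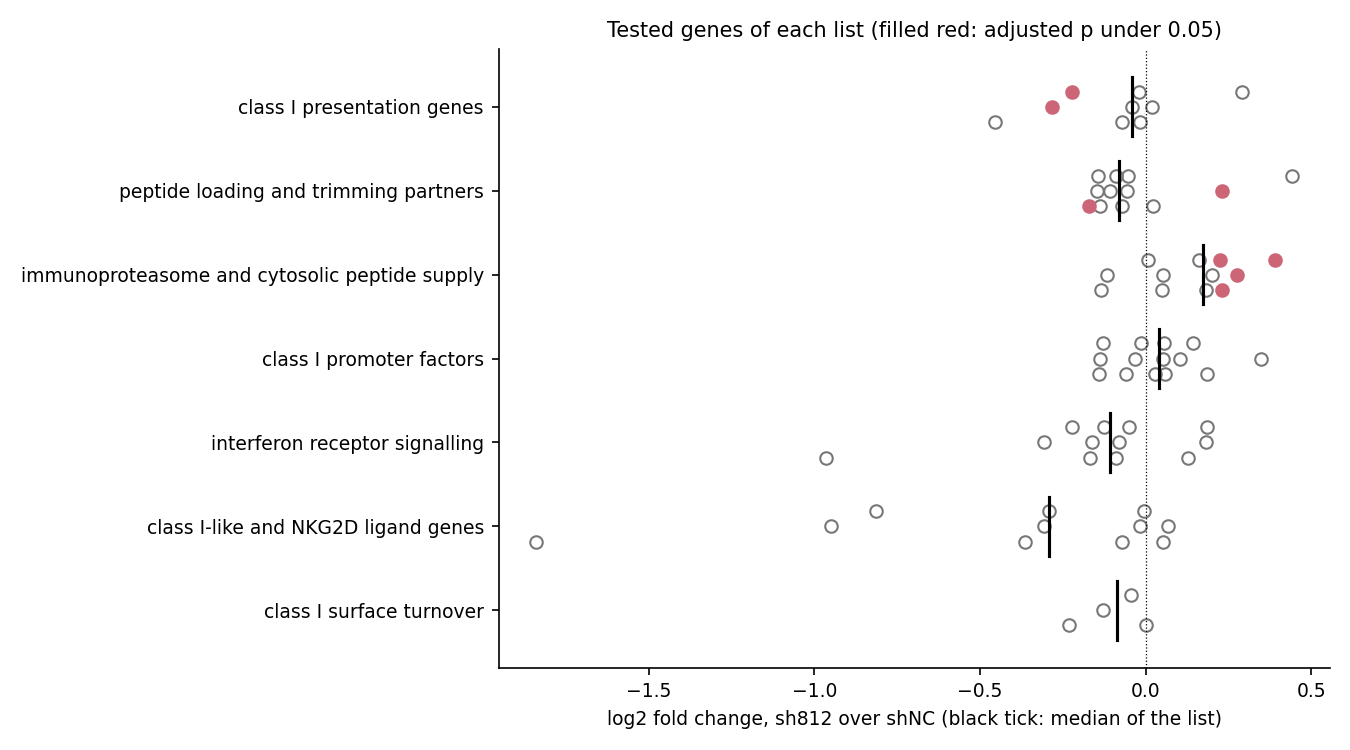
Log2 fold change (x axis, sh812 over shNC) of each tested gene in the 9 class I presentation genes and 6 other lists of the pathway, with filled red points for adjusted p under 0.05 and a black tick at each list's median. The called points are HLA-B, HLA-C and CANX on the lower side, and BCAP31 with 4 peptide supply genes on the higher side.

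Position was also shared, since 7 of the 9 genes lie in the MHC on chromosome 6. Between the start of HLA-F at 29722775 and the end of TAPBP at 33314387, 116 genes were tested, of which 9 were called higher and 5 lower, HLA-B and HLA-C among the latter and PSMB8 among the former. That is 12.1%, against 10.8% of all tested genes. The median log2 fold change of the 116 was 0.035.

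**Figure D5:**
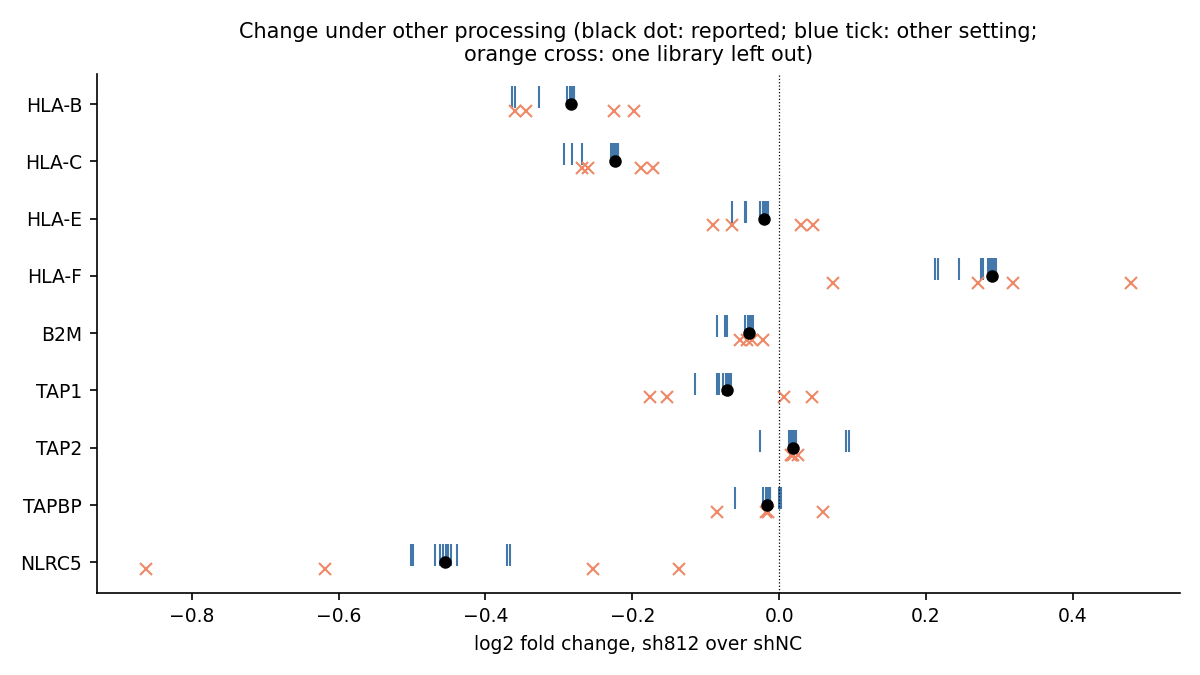
Log2 fold change of each gene (x axis, sh812 over shNC) as reported (black dots), under other processing settings (blue ticks) and with 1 library left out (orange crosses). HLA-B and HLA-C stay below 0 throughout, while HLA-E, TAP1, TAP2 and TAPBP lie near 0 and cross it in some settings.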

How the data were processed

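For 4 libraries and 60544 genes, the authors deposited whole-number read counts, neither scaled nor filtered, with Ensembl identifier, gene name and type. Per the submitters' processing notes, the build was hg38 and the tools listed were fastp, STAR 2.7.1a, featureCounts and DESeq2. Annotation release and strand setting are not given in the sources used here. Per the labels' protocols, libraries keep strand (dUTP) and were read as pairs of 150 bases.

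The test was edgeR 4.0.16 under R 4.3.3 (filterByExpr, TMM, glmQLFit and glmQLFTest on all 4 libraries, no covariate, fitted prior count 0.125), with Benjamini-Hochberg adjustment over 16802 genes and a threshold of 0.05. SE and 95% intervals come from the quasi-likelihood F statistic. Alternatives used RLE, upper quartile or no size factors, other filters, DESeq2 1.42.0, limma-voom (limma 3.58.1), a replicate block, lowess removal of length and GC trends (span 0.3) and each library left out. Replicates differed beyond sampling noise (chi-square per gene 8.43 in shNC, 4.51 in sh812). Positions, lengths and transcripts are from GENCODE 29 (GRCh38). A gene's main transcript is its best APPRIS principal one. Named are METTL3, the 9 genes, and every called gene of each pathway list or else its 2 smallest p-values. Outside that rule, PSMB9, PSMB10, PSME3, TPP2, HLA-G, HLA-DMA, CIITA, PECAM1 and other markers were chosen after seeing values. The genes and lists were chosen with earlier results of these data known. The levels of 1 marker list are not reported here.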

Additional observations from a re-analysis of the deposited data

How the results depend on the processing

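HLA-B and HLA-C kept their direction and call in each of 10 other ways of scaling, filtering or testing all 4 libraries, at log2 values from -0.36 to -0.28 for HLA-B and from -0.29 to -0.22 for HLA-C. METTL3 was called throughout. With 1 library left out, the lone sample of a group is assumed to vary like the others. The values then ran from -0.36 to -0.20 (HLA-B), -0.27 to -0.17 (HLA-C), -0.091 to 0.046 (HLA-E), -0.18 to 0.045 (TAP1), -0.085 to 0.060 (TAPBP), 0.073 to 0.48 (HLA-F) and -2.52 to -2.33 (METTL3). The number of the 9 genes called lower ran from 0 to 2, all genes called higher from 261 to 1703 and lower from 326 to 1549, and pathway genes called higher from 1 to 9 and lower from 0 to 5. TAP2 changed sign with library size alone (-0.027), and TAPBP once the length trend was taken out (0.0022). Library size alone gave 561 genes higher and 1328 lower in all (912 and 910 as reported), with 3 pathway genes higher and 7 lower (5 and 1 as reported), and brought the median over all genes to -0.050. DESeq2 called 585 genes lower. Pathway genes called lower were 0 with RLE size factors, 0 with the replicate block (CANX, adjusted p = 0.057 in edgeR) and 2 with the length and GC trend removed or with no low-count filter. These causes were not tested. Per kilobase, the heavy chain shares were 25.3% and 23.5% (HLA-B, shNC and sh812), 46.4% and 44.9% (HLA-C), 27.5% and 30.6% (HLA-E), and 0.777% for HLA-F in shNC. Replicate numbers are shared by label only: deviations from group means correlated at 0.0164 between libraries of one number, and with the replicate block 2001 genes were called against 1822, HLA-B and HLA-C among them. With 2 libraries a group, counts as low as those of NLRC5 and HLA-F limit what can be seen.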
